A study of Mus musculus with 9 samples.

Results

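The genes described here are 40 genes of MYC and of ribosome biogenesis, chosen by symbol and found by Entrez identifier among the 27179 genes counted in each of 9 RNA sequencing libraries of mouse natural killer (NK) cells. They comprise the transcription factors Myc and Mycn and 38 genes whose products build ribosomes. These 38 fall into 6 nucleolar and rDNA regulators, 3 box C/D and 3 box H/ACA snoRNP proteins, 7 early small-subunit factors, 6 small-subunit maturation and export factors, 10 large-subunit assembly factors and 3 RNA polymerase subunits. All 40 passed the filter on low counts in both tests. In the test of cultured against sorted cells, Mycn passed only through its cultured libraries.

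The study asked how ID2, a helix-loop-helix protein that restrains E proteins, affects NK cells and their response to interleukin-15 (IL-15). All cells came from the spleen of C57BL/6 mice. Id2-null NK cells and wild-type (WT) NK cells gave 3 libraries each, and wild-type Immature, M1 and M2 NK cells gave 1 library each. The submitters' protocol puts samples 1 to 6 in culture with IL-15 for 7 days and has samples 7 to 9 sorted and lysed directly, and the samples were taken in listed order, so the 6 libraries with a genotype replicate number are read as the cultured ones. The sources used here do not give the method of Id2 deletion, the surface markers of the sort, or whether replicates came from separate mice. The p-values therefore cover the spread among libraries alone, and that spread may be technical.

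MYC and MYCN are basic helix-loop-helix proteins that pair with MAX and bind E-box DNA, and genes of ribosome biogenesis are among their best known targets. Ribosome production begins in the nucleolus, where RNA polymerase I makes a long precursor rRNA. Small nucleolar ribonucleoproteins (snoRNPs) modify this precursor, and assembly factors cut and fold it into the small and large subunits. In lymphocytes, cytokine and antigen signals raise MYC as the cells grow and divide.

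Total counts ran from 4128414 to 4831831 per library. Levels are CPM, a gene's count relative to the size of its library after TMM scaling on genes that change little, and intervals and floors for single libraries cover counting error only. Id2 had 8.98 to 23.9 CPM in the Id2-null cultures, 374.5 to 407.9 in the WT cultures and 792.8 to 1252.9 in the sorted libraries. All 10 NK cell markers on the list were detected in every library, at a summed 6547 to 33497 CPM. The Id2-null libraries had 657.3 to 874.3 CPM of Xist and the WT cultures at most 1.16, while Ddx3y on the Y chromosome had at most 0.634 and at least 71.8 CPM, so sex and genotype cannot be told apart. The sorted libraries held both transcripts.

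The letters of the MYC-type E-box, CACGTG, were found near the annotated start of 8 members. Start windows of 300 bases, from 250 before the start to 50 from it, were taken from RefSeq on GRCm38.p6 for 34 of the 40 members. The window of 23.5% of these members held CACGTG on either strand (the motif reads the same on both), against 8.09% of 27025 mouse genes with such a window. For this and the motifs below, the genes compared were not matched to the members for expression or base composition. What underlies the shares was not tested. The 30-base stretches around these matches are shown because they carry the motif that MYC and MAX bind, in the direction of the gene, with CACGTG in capitals.
Nop2, chr6:125131811-125131840, plus strand: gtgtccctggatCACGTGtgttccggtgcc
Ltv1, chr10:13193092-13193121, minus strand: gccctgtggaccCACGTGtggagctgccgg
Utp20, chr10:88826765-88826794, minus strand: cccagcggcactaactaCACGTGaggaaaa
Pes1, chr11:3963965-3963994, plus strand: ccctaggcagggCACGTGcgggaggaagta
Pno1, chr11:17211540-17211569, minus strand: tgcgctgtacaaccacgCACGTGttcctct
Mybbp1a, chr11:72441347-72441376, plus strand: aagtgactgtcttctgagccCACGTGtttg
Tsr1, chr11:74898092-74898121, plus strand: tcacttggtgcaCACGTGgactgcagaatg
Wdr43, chr17:71616220-71616249, plus strand: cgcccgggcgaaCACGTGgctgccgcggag

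The match in Nop2 began 60 bases before the start, and the other 7 began 2 to 40 bases after it. In the windows of all genes, 13.9% of CACGTG matches began at or after the start. The related letters CACGCG (or CGCGTG on the other strand) were in the windows of 9 members, or 26.5%, against 10.5% of all genes. CAGCTG, an E-box letter string that also reads the same on both strands, was in 20.6% of member windows and 18.3% of all. CAGGTG (or CACCTG), another E-box letter string, was in 0 of 34 member windows and in 22.6% of all. CCGGAAG (or CTTCCGG), the core letters bound by ETS factors, was in 11 member windows, or 32.4%, against 9.93% of all. The 250 bases before the start of Nop2 hold both CACGTG and CCGGAAG, in capitals, and are shown for their spacing.
Nop2, chr6:125131633-125131882, plus strand: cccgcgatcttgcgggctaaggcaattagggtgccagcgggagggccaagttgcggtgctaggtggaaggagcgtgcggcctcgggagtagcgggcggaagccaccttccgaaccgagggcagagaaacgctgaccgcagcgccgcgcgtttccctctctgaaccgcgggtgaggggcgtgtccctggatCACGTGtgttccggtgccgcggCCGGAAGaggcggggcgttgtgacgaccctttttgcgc

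Among the 25 members with a window that were called higher in culture by edgeR, 5 held CACGTG. Called members such as Nop2, Tsr1 and Wdr43 held it, and so did Pes1, Pno1 and Ltv1, which were not called. These matches describe letters in a window, and no binding was measured.

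**Figure D1:**
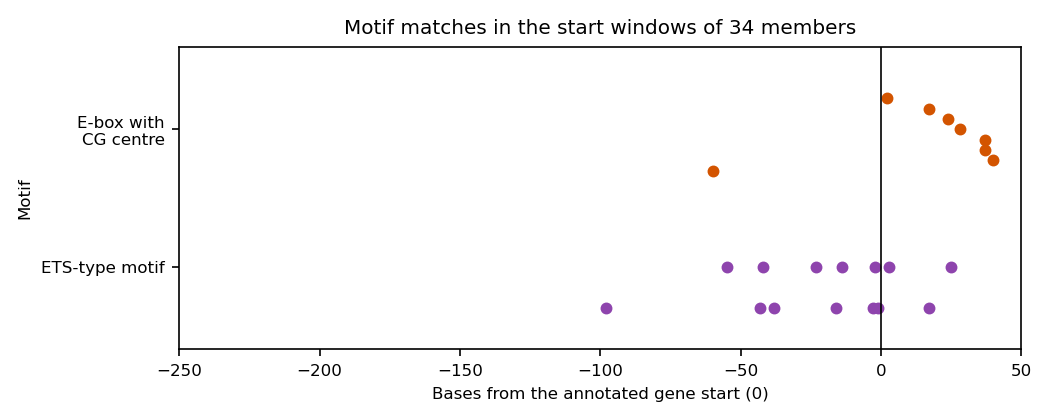
Each point is 1 motif match in a start window of a member, at its distance in bases from the annotated start (negative is upstream). Noc2l had overlapping windows from different annotated starts, so the same ETS-type site is drawn at -2 and at 3. The upper row is the E-box with a CG centre given in the text and the lower row the ETS-type motif. Of the 8 E-box matches, 7 lie after the start.

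Myc and Mycn were both higher in the cultures than in the sorted libraries, and between genotypes they differed in opposite directions. Neither passed the edgeR fit by genotype alone, while the fit with the replicate number as a block called Mycn lower. Myc (chromosome 15, 61985341 to 61990361) had 203.4, 232.8 and 129.7 CPM in the Id2-null cultures, replicates 1 to 3, 141.0, 175.6 and 143.4 in WT, and 93.7, 71.9 and 30.8 in Immature, M1 and M2. The 2 genotypes overlapped, and all 6 cultures lay above all 3 sorted libraries. Mycn (chromosome 12, 12936093 to 12941836), a MYC paralog better known from neural and embryonic cells, had 23.1, 30.02 and 14.3 CPM in Id2-null, 63.1, 80.1 and 31.0 in WT, and 1.02, 0 and 0.251 in Immature, M1 and M2. Mycn was thus a transcript of the cultures, and its 3 WT values all lay above its 3 Id2-null values. The lowest WT value (31.0) was close to the highest Id2-null value (30.02), while between same-numbered cultures WT was 2.73, 2.67 and 2.17 times Id2-null. Its counts in the sorted libraries were 4, 0 and 1, and the 0 in M1 allows up to 0.724 CPM (3 counts). Per kilobase of gene length, Myc had 63.9 and Mycn 22.4 CPM in WT cultures, against 78.6 and 8.66 in Id2-null cultures.

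**Figure D2:**
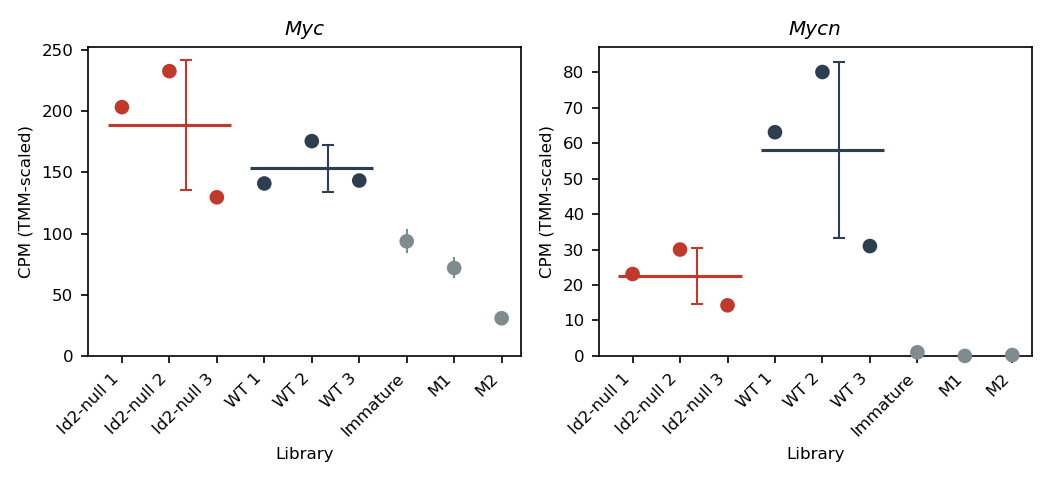
TMM-scaled CPM of Myc (left) and Mycn (right) in each of the 9 libraries. Points are libraries, horizontal lines and bars are the mean and SD of 3 libraries, and vertical lines on the sorted libraries are exact Poisson 95% intervals. Mycn sits between 14.3 and 80.1 CPM in the cultures and at 1.02 CPM or less in the sorted libraries.

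Between the genotypes, no member passed edgeR's quasi-likelihood test, fitted by genotype alone, with Benjamini-Hochberg adjustment over all 11022 genes tested. Of all genes, 1.84% were called higher and 1.52% lower in Id2-null cultures. Mycn had the lowest log2 fold change of the members, -1.36 (SE 0.38, 95% interval -2.25 to -0.48), with an unadjusted edgeR p of 0.00761 and an adjusted p of 0.127. With the replicate number as a block, edgeR called Mycn lower at -1.33 (adjusted p = 0.00362), where 2.95% of all genes were called lower. DESeq2 also called it (adjusted p = 0.00527), as did edgeR without replicate 3 of both genotypes (2.23e-05) and without WT replicate 3 (0.0439). Of all genes, these fits called 264, 477 and 121 lower, in that order, against 167 in the fit by genotype alone. With limma voom Mycn was not called, and its adjusted p over all 13 alternatives ran from 2.23e-05 to 0.375. Myc had a log2 fold change of 0.30 (SE 0.22), with an edgeR adjusted p of 0.601.

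The ribosome biogenesis genes lay slightly higher in the Id2-null cultures as a list. The log2 fold change was above 0 for 38 of the 40 members, against 52.1% of all genes, and Mycn and Rrp1b (-0.01) were the exceptions. The members' median was 0.29 and that of all genes 0.01. At an unadjusted edgeR p under 0.05 there were 13 members higher, against 7.37% of all genes, and 1 lower, which was Mycn. All 3 Id2-null values lay above all 3 WT values for 15 members, against 9.93% of all genes, and below them for Mycn alone, against 10.5%.

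Id2-null replicate 3 had the highest level of most of these genes. The 38 ribosome biogenesis genes summed to 5163, 5822 and 7317 CPM in the Id2-null cultures (replicates 1 to 3) and to 4507, 4842 and 4866 in WT. Of the 38, 26 had their highest value of the 6 cultures in Id2-null replicate 3 and 12 in Id2-null replicate 2, while Id2-null replicate 1 was the lowest of its group for 32. Without Id2-null replicate 3 the median log2 fold change of the 40 members was 0.18, and without Id2-null replicate 1 it was 0.43. The 20 proliferation genes summed to 4856, 5507 and 3696 CPM in Id2-null and 5927, 5446 and 6215 in WT. Their lowest value of the 6 cultures was in Id2-null replicate 3 for 12 of them and in Id2-null replicate 1 for 8. Of the 20, 19 had a log2 fold change below 0 and 0 were called, and their part in the members' values was not tested.

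**Figure D3:**
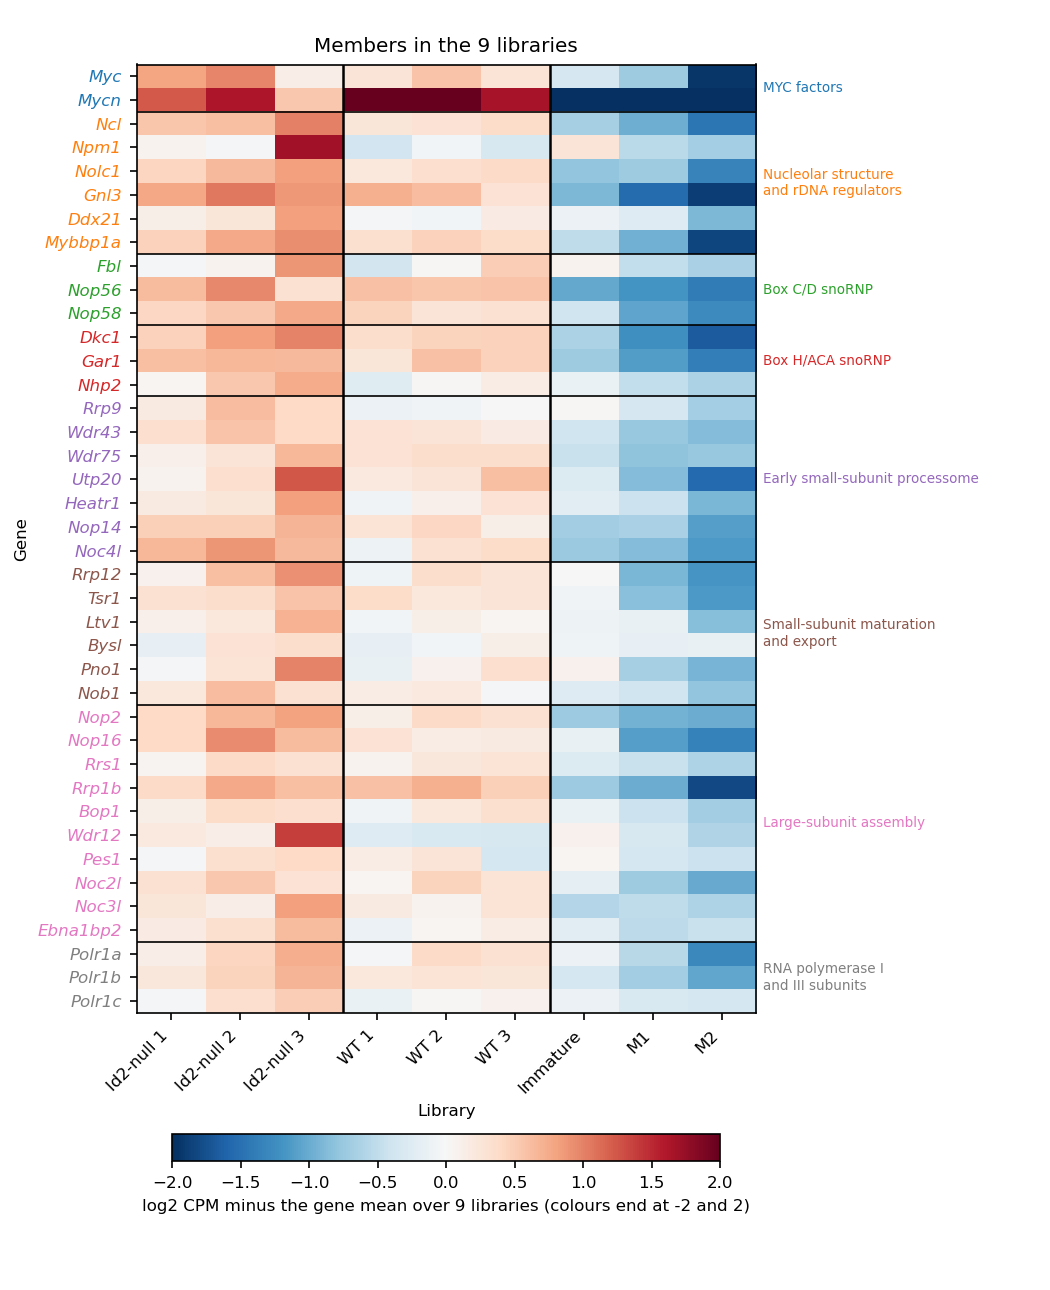
Each row is a member and each column a library. Colours give log2 CPM minus the gene's mean over the 9 libraries, and roles are named at the right. Of the 38 ribosome biogenesis genes, 26 have their highest culture value in Id2-null replicate 3 and 12 in Id2-null replicate 2. The M2 column is the lowest for most rows.

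Cultured WT cells had more of these transcripts than the sorted wild-type cells, and this held in every role. Of the 40 members, 29 (72.5%) were called higher and 0 lower by edgeR, against 27.5% and 29.4% of 11117 genes tested. The 29 include Mycn, which passed the filter only through the WT cultures. Of the 38 ribosome biogenesis genes alone, 27 (71.1%) were called higher. The members were chosen with earlier results of these data known, so shares set against all genes, here and elsewhere, are no independent test. Of 93 other ribosome biogenesis factors, 38.7% were called higher and 6.45% lower. The members' median log2 fold change was 0.88 and that of all genes -0.02, and 39 of 40 were above 0. The 3 cultures lay above all 3 sorted libraries for 30 members (28 of the 38), against 31.6% of all genes, and below them for 0, against 34.1%. The 3 sorted libraries are different populations, so the spread in this test contains the differences between them. Culture, handling, preparation and sex cannot be told apart, and neither can more transcript per cell and more cells that hold it. Xist had at most 1.16 CPM in the WT cultures and 90.5 to 127.1 in the sorted libraries.

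Scaling by library size alone moved the median of all genes to 0.15 and the share of higher calls among all calls from 48.3% to 58.8%. The members then had 31 higher calls, a median of 1.04 and 40 of 40 above 0. Of the 29 called members, 20 were called in all 11 alternatives, and the other 9 lost the call only when 1 library was left out (Myc, Heatr1, Rrp12, Tsr1, Nob1, Nop16, Bop1, Ebna1bp2 and Polr1a). Without WT replicate 1, edgeR did not call Rrp12 (adjusted p = 0.059), Tsr1 (0.0582), Nob1 (0.0551) and Nop16 (0.0635). Without WT replicate 2 it did not call Myc (0.0532), Heatr1 (0.0575), Rrp12 (0.126), Nob1 (0.0589), Bop1 (0.0661), Ebna1bp2 (0.0677) and Polr1a (0.0941). Without WT replicate 3 it did not call Heatr1 (0.0785), Rrp12 (0.105), Bop1 (0.076), Ebna1bp2 (0.0835) and Polr1a (0.0807). Without M1 it did not call Heatr1 (0.0543), Rrp12 (0.143), Tsr1 (0.0659), Nop16 (0.0751), Bop1 (0.0706), Ebna1bp2 (0.107) and Polr1a (0.0803), and without M2 Rrp12 (0.116), Bop1 (0.0626) and Ebna1bp2 (0.0762). Rrp12 thus kept its call in 1 of these 6 fits, the one without Immature. That fit also called Ddx21 (0.0396), Nhp2 (0.0188) and Pno1 (0.00778), and library-size scaling called Nhp2 (0.0318) and Polr1c (0.0369).

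Myc rose by 1.23 (SE 0.34, edgeR adjusted p = 0.0145). Mycn was also called higher (edgeR adjusted p = 0.000119). It passed the filter only through the WT cultures, where it is high, so this p is no independent support. The fitted change of Mycn rests on the sorted counts of 4, 0 and 1 and is not given as a fold.

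**Figure D4:**
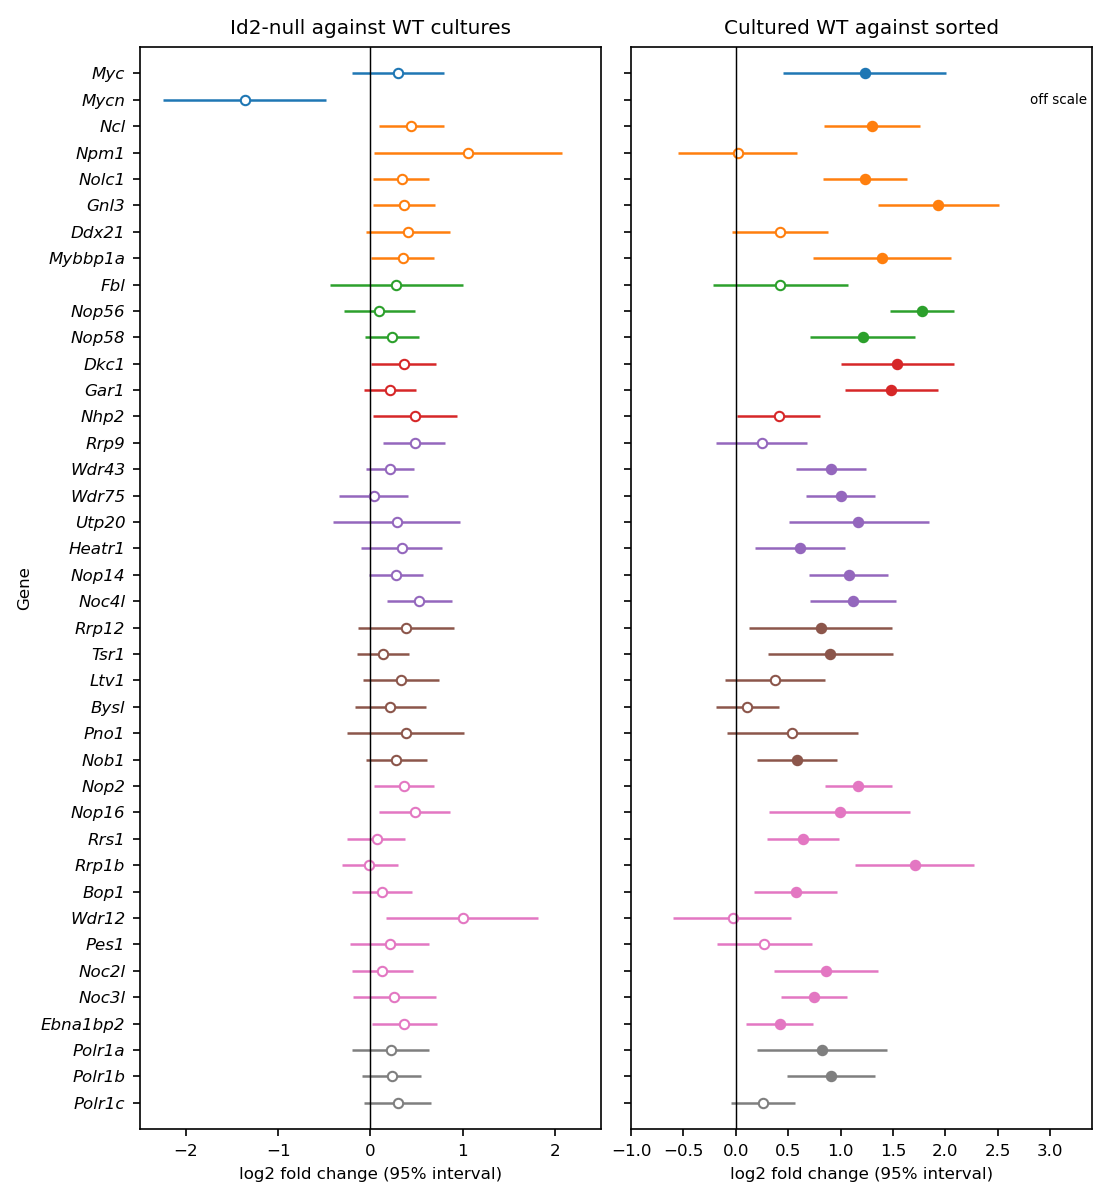
Log2 fold changes with 95% intervals for each member in Id2-null against WT cultures (left) and cultured WT against sorted libraries (right). Filled points passed an adjusted p of 0.05, colours mark roles, and Mycn is off the right-hand scale. No point on the left, fitted by genotype alone, is filled, and 29 members are called on the right.

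Among the nucleolar and rDNA regulators, Ncl, Gnl3, Mybbp1a and Nolc1 rose in culture and Npm1 and Ddx21 were not called. Ncl (nucleolin, chromosome 1, 86344719 to 86359455), an abundant nucleolar protein of rRNA transcription and processing, was the member with the most CPM per kilobase in WT cultures, at 160.5. It had 1585, 1640 and 2159 CPM in Id2-null, 1277, 1315 and 1384 in WT, and 682.0, 545.2 and 396.9 in Immature, M1 and M2, so the 3 kinds of library did not overlap. Ncl rose by 1.30 in culture (SE 0.20, edgeR adjusted p = 0.000988), and between genotypes its log2 fold change was 0.44 (adjusted p = 0.219). Gnl3 (nucleostemin, chromosome 14, 31012433 to 31019131), a nucleolar GTPase of proliferating cells, had the largest rise of the 38, 1.93 (SE 0.25, edgeR adjusted p = 0.000457). Its values were 86.9, 105.1 and 92.6 CPM in Id2-null, 83.1, 77.6 and 61.6 in WT, and 27.3, 17.4 and 13.8 in the sorted libraries. Mybbp1a, which regulates RNA polymerase I, rose by 1.40 (SE 0.29), and Nolc1, a snoRNP chaperone, by 1.23 (SE 0.17).

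Npm1 (nucleophosmin, chromosome 11, 33152498 to 33164142), a nucleolar histone chaperone, stood apart from Ncl. It had 239.0, 224.7 and 734.1 CPM in Id2-null, 175.6, 219.7 and 182.7 in WT, and 274.0, 156.8 and 143.1 in the sorted libraries. Only Id2-null replicate 3 was far from the others. The log2 fold change was 1.06 between genotypes (SE 0.44, edgeR adjusted p = 0.322) and 0.02 between culture and sorted (SE 0.25, adjusted p = 0.958). Npm1 has processed copies elsewhere in the genome, and its counts are uncertain because the handling of reads with several matches is unknown. Ddx21, an RNA helicase of the nucleolus, had 0.42 in culture (SE 0.20, edgeR adjusted p = 0.105).

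Of the box C/D proteins, which carry ribose methylation, the scaffold proteins Nop56 and Nop58 rose in culture and the methyltransferase Fbl was not called. Nop56 (chromosome 2, 130274367 to 130279313) had 160.8, 158.6 and 160.0 CPM in WT cultures, 166.0, 209.3 and 133.2 in Id2-null, and 53.0, 47.0 and 40.6 in the sorted libraries. It rose by 1.78 (SE 0.13, edgeR adjusted p = 5.72e-05), and it was 1 of 3 among the 38 (with Noc4l and Noc2l) to have its lowest Id2-null value in replicate 3. Nop58 (chromosome 1, 59684961 to 59711510) had 183.4, 198.9 and 231.3 CPM in Id2-null, 187.9, 165.2 and 170.4 in WT, and 104.2, 65.9 and 57.1 in the sorted libraries, a rise of 1.21 (SE 0.22). Fbl (fibrillarin, chromosome 7, 28168893 to 28179269) had 19.8, 21.4 and 37.5 CPM in Id2-null, 15.8, 20.6 and 28.7 in WT, and 21.4, 14.5 and 13.03 in the sorted libraries. Its culture and sorted values overlapped, with a log2 fold change of 0.42 (SE 0.28, edgeR adjusted p = 0.226).

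The box H/ACA proteins, which carry pseudouridylation and also serve telomerase, likewise had 2 of 3 members called higher, against 27.5% of all genes. The pseudouridine synthase Dkc1 (dyskerin, chromosome X, 75095854 to 75109776) had 138.7, 177.8 and 201.7 CPM in Id2-null, 129.4, 137.1 and 138.4 in WT, and 65.2, 43.2 and 31.8 in the sorted libraries. It rose by 1.54 in culture (SE 0.24, edgeR adjusted p = 0.000952), and between genotypes it had 0.36 (adjusted p = 0.327). In both contrasts an X-linked gene is confounded with sex. Gar1 (chromosome 3, 129824912 to 129831407) had 74.8, 78.6 and 77.5 CPM in Id2-null, 58.5, 74.3 and 68.0 in WT, and 30.3, 22.9 and 19.0 in the sorted libraries, a rise of 1.48 in culture (SE 0.19). Nhp2 (chromosome 11, 51619773 to 51623718) was not called. Its values were 76.4, 108.5 and 124.8 CPM in Id2-null, 63.3, 76.0 and 83.0 in WT, and 68.0, 52.8 and 47.9 in the sorted libraries, and its log2 fold change in culture was 0.41 (SE 0.17, edgeR adjusted p = 0.0747).

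In the early small-subunit processome, 6 of 7 members rose in culture, against 27.5% of all genes. These were Utp20, Noc4l, Nop14, Wdr75, Wdr43 and Heatr1, and the median over the 7 was 1.00. Utp20 (chromosome 10, 88746607 to 88826814), a large scaffold protein, had 66.0, 79.1 and 149.1 CPM in Id2-null, 72.1, 74.9 and 95.1 in WT, and 52.2, 34.5 and 21.3 in the sorted libraries, a rise of 1.17 (SE 0.29). Noc4l (chromosome 5, 110648419 to 110653382), a partner of Nop14, rose by 1.12 (SE 0.18) and had the smallest genotype p of the members above 0. It had 82.8, 96.4 and 82.4 CPM in Id2-null, 49.0, 64.5 and 67.8 in WT, and 31.3, 28.7 and 23.6 in the sorted libraries. Its genotype log2 fold change was 0.53 (SE 0.15, edgeR adjusted p = 0.133), and it was called without replicate 3 of both genotypes (0.66, adjusted p = 0.0126). That fit called 539 of all genes higher, against 203 in the fit by genotype alone.

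Wdr43 (chromosome 17, 71616178 to 71659031), a subunit of an early complex on the precursor rRNA, was the most abundant of the 7 per kilobase over the 9 libraries. It had 139.8, 164.9 and 145.4 CPM in Id2-null, 135.0, 133.0 and 124.0 in WT, and 83.5, 65.6 and 60.9 in the sorted libraries, a rise of 0.91 in culture (SE 0.15). Rrp9 (chromosome 9, 106477309 to 106485415), a snoRNP protein of the processome, was the member not called. It had 45.1, 60.9 and 52.2 CPM in Id2-null, 36.5, 37.9 and 39.7 in WT, and 40.5, 31.4 and 24.8 in the sorted libraries. The log2 fold change of Rrp9 was 0.48 between genotypes (edgeR adjusted p = 0.155) and 0.25 in culture (adjusted p = 0.300). Neither was called, and the difference between these contrasts was not tested.

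Small-subunit maturation and export had the lowest share of calls of the 8 roles, 3 of 6, against 27.5% of all genes. Tsr1, Rrp12 and Nob1 rose, and Ltv1, Pno1 and Bysl were not called. Tsr1 (chromosome 11, 74898080 to 74909340), a factor that resembles a GTPase, had 47.8, 49.1 and 56.9 CPM in Id2-null, 49.6, 44.7 and 46.2 in WT, and 36.7, 21.5 and 17.3 in the sorted libraries, a rise of 0.90 (SE 0.26). Nob1 (chromosome 8, 107412489 to 107425038), the endonuclease of the last cut in small-subunit rRNA, rose by 0.58 (SE 0.17) from 41.3, 37.2 and 28.3 CPM in the sorted libraries to 54.4, 56.4 and 48.3 in WT, with 57.0, 75.3 and 60.4 in Id2-null. Rrp12, which aids export, rose by 0.81 (SE 0.30, edgeR adjusted p = 0.0452).

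Ltv1 (chromosome 10, 13178597 to 13193137), an export factor, had 41.2, 44.6 and 62.0 CPM in Id2-null, 36.9, 41.6 and 39.3 in WT, and 35.7, 34.5 and 21.3 in the sorted libraries. Bysl (bystin, chromosome 17, 47599331 to 47611492) was the flattest of the 6, at 41.5, 44.7 and 50.1 CPM in WT and 43.6, 41.5 and 41.8 in the sorted libraries, with 41.4, 56.9 and 59.2 in Id2-null. Their log2 fold changes in culture were 0.37 (edgeR adjusted p = 0.157) for Ltv1 and 0.11 (adjusted p = 0.497) for Bysl. Pno1, which holds the site that Nob1 cuts, had 0.54 (adjusted p = 0.120).

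In large-subunit assembly, 8 of 10 members rose in culture, against 27.5% of all genes, and Pes1 and Wdr12 were not called. Those that rose were Rrp1b, Nop2, Nop16, Noc2l, Noc3l, Rrs1, Bop1 and Ebna1bp2. Rrp1b (chromosome 17, 32036162 to 32062865) had the largest rise, 1.71 (SE 0.25, edgeR adjusted p = 0.000719). It had 69.6, 89.9 and 80.6 CPM in Id2-null, 80.4, 87.4 and 74.1 in WT, and 32.3, 26.8 and 15.3 in the sorted libraries, so the genotypes overlapped throughout. Noc2l (chromosome 4, 156234655 to 156247616) had 181.6, 214.2 and 179.1 CPM in Id2-null, 150.2, 198.9 and 177.9 in WT, and 129.4, 89.5 and 73.2 in the sorted libraries, a rise of 0.86 (SE 0.22). The rRNA methyltransferase Nop2 rose by 1.17 (SE 0.14), Nop16 by 0.99 (SE 0.29), Noc3l by 0.75 (SE 0.14), Rrs1 by 0.64 (SE 0.15) and Ebna1bp2 by 0.42 (SE 0.14).

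Pes1, Bop1 and Wdr12 form the PeBoW complex of large-subunit rRNA processing, and their transcripts did not share 1 pattern. Bop1 (chromosome 15, 76452988 to 76477249) had 123.5, 147.2 and 144.6 CPM in Id2-null, 108.1, 131.9 and 142.1 in WT, and 103.7, 84.4 and 70.2 in the sorted libraries, a rise of 0.57 (SE 0.17, edgeR adjusted p = 0.0226). Wdr12 (chromosome 1, 60071361 to 60098500) had 13.4, 12.9 and 30.8 CPM in Id2-null, 9.79, 9.57 and 9.43 in WT, and 12.5, 9.41 and 7.77 in the sorted libraries. As with Npm1, Id2-null replicate 3 stood far above the rest. The log2 fold change of Wdr12 was 1.00 between genotypes (SE 0.35, edgeR adjusted p = 0.240) and -0.03 in culture (adjusted p = 0.915), and the latter was 0.13 with scaling by library size. Pes1 had 0.27 in culture (SE 0.20, edgeR adjusted p = 0.269).

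Polr1a and Polr1b, the largest subunits of RNA polymerase I, rose in culture, and Polr1c, which RNA polymerases I and III share, was not called. Polr1b (chromosome 2, 129100970 to 129128060) had 57.2, 66.2 and 78.5 CPM in Id2-null, 56.2, 58.9 and 58.0 in WT, and 38.5, 30.2 and 23.8 in the sorted libraries, a rise of 0.91 (SE 0.18, edgeR adjusted p = 0.00323). Polr1c (chromosome 17, 46243920 to 46248045) had 52.2, 67.2 and 74.3 CPM in Id2-null, 48.1, 53.9 and 56.4 in WT, and 48.6, 42.9 and 41.6 in the sorted libraries. Its log2 fold change in culture was 0.26 (SE 0.13, edgeR adjusted p = 0.131). Polr1a rose by 0.82 (SE 0.27, edgeR adjusted p = 0.0308).

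Over the sorted libraries the members were highest in Immature cells and lowest in M2 cells. The 40 members all had a lower level in M2 than in Immature, against 47.4% of all genes, and 37 had their highest level in Immature, against 35.3%. The order Immature, M1, M2 was a step down each time for 33 members, against 20.2% of all genes. With 1 library per population there is no test, and these values compare libraries. The 38 ribosome biogenesis genes summed to 3116, 2421 and 1880 CPM in Immature, M1 and M2, or 0.312%, 0.242% and 0.188% of the scaled library.

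The members' median log2 ratio was -0.69 for M2 over Immature (all genes 0.02), -0.36 for M1 over Immature (all genes 0.01) and -0.27 for M2 over M1 (all genes 0.05). At least 2-fold lower in M2 than in Immature were 10 members, against 6.31% of all genes, and 0 were at least 2-fold higher, against 5.43%. In these counts and medians a count under 3 was set to 3 for every gene, which leaves out Mycn with its 4 and 1 counts. On the counts as deposited, 11 members were at least 2-fold lower, Mycn included. The ratio's 95% counting interval crossed 0 for Mycn, Wdr75, Bysl, Nop2, Rrs1, Noc3l, Ebna1bp2 and Polr1c and lay below it for the other members. The interval covers counting error between single libraries only. The share of all genes with such an interval below 0 was not counted, so this is no result about the members. Myc had the lowest ratio of the members with more than a few counts, -1.60 (95% interval -1.91 to -1.31), and its step from M1 to M2 (-1.22) was larger than that from Immature to M1 (-0.38). Mybbp1a had -1.32 (-1.52 to -1.12), Utp20 -1.29 (-1.68 to -0.92), Nop16 -1.20, Polr1a -1.18, Rrp12 -1.17, Rrp1b and Tsr1 -1.08, Dkc1 -1.03 and Pno1 -1.01. At the other end were Noc3l with -0.04 (-0.46 to 0.38) and Bysl with -0.06 (-0.37 to 0.26).

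**Figure D5:**
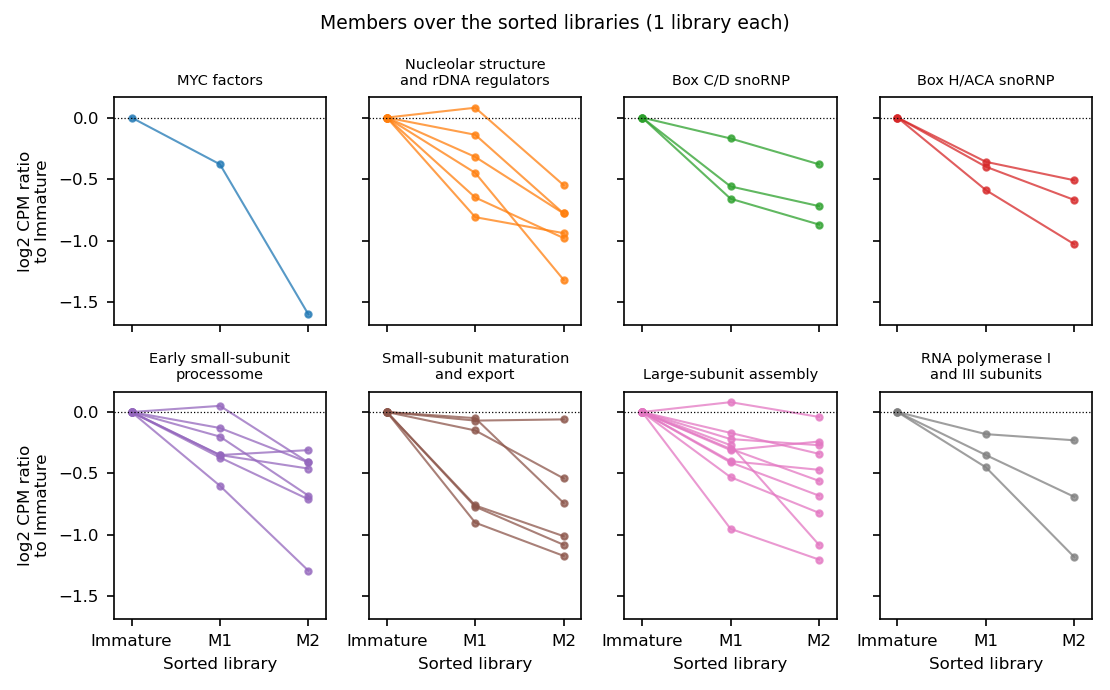
Log2 ratio of CPM to the Immature library for each member, in 1 panel per role, over Immature, M1 and M2 (1 library each, no replicates). Mycn is not drawn because its counts were 4, 0 and 1. Nearly all lines go down, and Noc3l and Bysl stay nearest to 0 in M2.

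Markers of other cells and of division also moved across these libraries. The 8 myeloid markers summed to 1147, 1337 and 1759 CPM in Immature, M1 and M2 and to 344.6 to 574.2 in the cultures. Most of this was Itgax, an integrin that NK cells also express, at 959.9, 1130.3 and 837.4 CPM in Immature, M1 and M2 and 341.5 to 571.7 in the cultures. The other 7 summed to 187.4, 206.3 and 921.9 CPM in Immature, M1 and M2 and to 0.204 to 3.12 in the cultures, where Lyz2 was at 0 in all 6 and 5 or 6 of the 8 were at 0 in each library. The 6 B cell markers summed to 59.6, 36.9 and 96.2 CPM in the sorted libraries and to 0.408 to 1.76 in the cultures. The 8 T cell markers summed to 565.1, 93.8 and 155.4 CPM in Immature, M1 and M2 and to 57.2 to 331.1 in the cultures, and none was at 0 in a sorted library. The 20 proliferation genes summed to 2052, 1083 and 1201 CPM in Immature, M1 and M2. Their part in the members' values was not tested.

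Genes related to the members gave mixed counts. Of 35 tested MYC targets outside the ribosome, 21 rose and 1 fell in culture, or 60% higher against 27.5% of all genes. The 3 with the smallest adjusted p were the transferrin receptor Tfrc (4.52), the arginine methyltransferase Prmt5 (1.55) and Odc1 (1.83), the first enzyme of polyamine synthesis. Of 93 other ribosome biogenesis factors, 36 rose and 6 fell, or 38.7% higher against 27.5% of all genes and 72.5% of the 40 members, with a median of 0.16. Ppan rose by 2.33 and Mphosph10 by 1.35, and the exonuclease Xrn2 fell by 0.91. Of 17 partners and antagonists of MYC, 5 rose and 2 fell, or 29.4% higher, which is near the 27.5% of all genes. The antagonist Mxd1 had 153.5 CPM in the sorted libraries and 35.6 in WT cultures and fell by 2.10. Mxd3, of the same family, went the other way, from 6.88 CPM sorted to 33.7 in WT cultures, and rose by 2.30. Mxd4, Mxi1 and Mnt were not called. The kinase Aurka rose by 2.90 and the ubiquitin ligase subunit Fbxw7 by 1.15. Of the 20 proliferation genes, 19 rose, against 27.5% of all genes, with Mki67 at 1270 CPM in WT cultures and 40.4 in the sorted libraries. Between the genotypes, 0 genes of these 4 lists were called by edgeR. At an unadjusted p under 0.05 7.37% of all genes were higher, and there were 9 higher and 1 lower among the other ribosome biogenesis factors, 1 higher and 0 lower among the MYC targets, 1 and 1 among the partners, and 0 and 2 among the proliferation genes. The other ribosome biogenesis factors leaned the way of the members, with 84 of 93 above 0 and a median of 0.19.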

How the data were processed

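RNA sequencing libraries of mouse NK cells were deposited by the authors as raw counts per Entrez gene with a gene length, per the file headers. The submitters' processing notes name Subread, featureCounts and limma with GRCm38 (mm10). The sources used here give no versions, strand setting or filters. RefSeq on GRCm38.p6 gave symbols for 25275 of 27179 identifiers, and 1 of 212 genes on the other lists (Polr1f) had no match.

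Counts were tested in R 4.3.3 with edgeR 4.0.16 (quasi-likelihood), after filterByExpr with a minimum count of 10 and TMM scaling, with Benjamini-Hochberg adjustment over all genes tested and a call at an adjusted p under 0.05. The scripts were tested on simulated data. Id2-null and WT cultures were fitted by genotype alone, and WT cultures and the 3 sorted libraries by culture alone. Printed CPM use 1 TMM scaling over all 9 libraries. Sorted libraries were compared by ratio, with exact Poisson or binomial 95% intervals and a call at 2-fold, and a count of 0 allowed 3 counts. Alternatives were DESeq2 1.42.0, limma 3.58.1 (voom), library-size scaling, no filter, a replicate block, all 9 libraries, and leaving out libraries.

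Deviations from the genotype means correlated at 0.352, 0.241 and 0.417 between same-numbered Id2-null and WT cultures and at most 0.189 otherwise. The crossed values between replicates 1 and 2 were 0.136 and 0.189. The correlations thus mainly set replicate 3 apart, and they do not settle whether each number marks a pair. The labels do not say what a number marks.

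The members and lists were chosen with earlier results of these data known. Values in every library were given for Myc, Mycn and, in each role, the 2 members with the most CPM per kilobase and those with the largest and smallest change in culture. Of the other lists, the 3 called genes with the smallest adjusted p could be named. Members outside this rule were named for counts and ranges after their values were seen. Mxd3, Mxd4, Mxi1 and Mnt were likewise named after their values were seen.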

Additional observations from a re-analysis of the deposited data

How the results depend on the processing

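In Id2-null against WT, 203 genes were called higher and 167 lower. DESeq2 gave 316 and 264, the replicate block 371 and 325, and leaving out replicate 3 of both genotypes 539 and 477. Leaving out 1 library gave 58 to 367 higher and 47 to 257 lower. Of the members, 0 were called. Mycn was the 1 called lower by DESeq2, with the replicate block, and without replicate 3 of both genotypes, where 1 (Noc4l) was called higher, and leaving out 1 library gave 0 to 1 lower. The block changed no other member's call. The sign changed for Rrp1b with no filter (6.49e-05), and without replicate 3 of both genotypes for Wdr75 (-0.14), Utp20 (-0.02) and Pes1 (-0.04). Leaving out 1 library changed it for Rrp1b (-0.1 to 0.09), Nop56 (-0.09 to 0.23), Rrs1 (-0.00423 to 0.16), Fbl (-0.08 to 0.53), Wdr75 (-0.15 to 0.16) and Utp20 (-0.15 to 0.51). In culture against sorted, Wdr12 was 0.13 with library-size scaling, and leaving out 1 library changed the sign of Wdr12 (-0.19 to 0.16) and Npm1 (-0.16 to 0.36). None of these was called, and the causes were not tested. The 29 members called in culture were 22 to 32 when 1 library was left out. In M2 against Immature the members' median was -0.79 with library-size scaling, and 23 were lower at 1.5-fold, against 14.1% of all genes (24 with Mycn, whose count of 1 was otherwise set to 3). Depth limits Mycn in the sorted libraries, with 4, 0 and 1 counts.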
